A study of Homo sapiens with 12 samples.

Results

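The 36 genes described here act in DNA repair and in the checkpoints that halt the cell cycle when DNA is damaged. They were chosen by symbol from a list of homologous recombination, Fanconi anaemia, mismatch repair, end joining and checkpoint kinase genes. No cut on measured values was used, but earlier results of these data were known when the list was chosen. All 36 had a row among the 29744 gene rows of the table, and all 36 were among the 14417 genes that passed the filter on low counts. By role they fell into 10 genes of homologous recombination, 9 of the Fanconi anaemia pathway, 4 checkpoint kinases, 4 of break sensing and end resection, 4 of end joining, 2 of mismatch repair, 2 of single-strand break repair and 1 RecQ helicase. RNA-seq libraries had been made from total RNA of 4 human breast epithelial cell lines, 3 biological replicates per line, to judge a workflow that yields DNA, RNA and peptides together. A10 is MCF10A, an immortalised mammary line that forms no tumours. NeoT is MCFNeoT, MCF10A carrying a mutant HRAS transgene, which the series lists as benign hyperplasia. T1 is MCFT1 (atypical hyperplasia) and CA1 is MCFCA1 (invasive cancer), both derived from the HRAS-carrying cells by passage through mice as grafts. Each stage is thus 1 cell line, and a difference between stages cannot be told apart from a difference between these lines or their cultures.

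Double-strand breaks are repaired either by homologous recombination, which copies the sister chromatid and so works in S and G2 phase, or by end joining, which rejoins ends throughout the cycle. The Fanconi anaemia pathway unhooks crosslinks between DNA strands and hands the resulting breaks to homologous recombination. ATM and ATR sense breaks and stalled forks and signal through the kinases CHEK2 and CHEK1. Many recombination and Fanconi genes are transcribed mainly in cycling cells under E2F factors, whereas the end joining genes are expressed throughout the cycle. In breast epithelium, inherited loss of BRCA1, BRCA2, PALB2, ATM, CHEK2, BARD1, RAD51C or RAD51D raises the risk of cancer.

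Library totals ran from 18032404 to 35730417 estimated counts, and the members had between 31 and 16596 counts in a library (median 430). HRAS was higher than in A10 in each derived line, with log2 fold changes of 1.89 in NeoT, 1.29 in T1 and 2.23 in CA1. CDKN2A and CDKN2B had 0 counts in all 12 libraries, so every line, A10 included, lacked detectable transcripts of these cell cycle inhibitors. A count of 0 still allows up to 0.0326 CPM (3 counts over the line, counting error only) in A10, then 0.0473 in NeoT, 0.0356 in T1 and 0.0463 in CA1. Of 11 epithelial markers, 8 were called lower in NeoT than in A10, where CDH1 stood at 0.691 CPM against 313 and TP63 at 0 against 107, while KRT8 was 3.22-fold higher (edgeR adjusted p = 6.67e-13) and KRT18 was not called. Here CPM is the count relative to the TMM-scaled library size. The summed level of these markers was 911 to 1010 CPM in NeoT and 6404 to 10101 in the other lines, and GRHL2 was at 0 in both A10 and NeoT. The 10 mesenchymal markers summed to 17172 to 20807 CPM in NeoT and to 173 to 2166 elsewhere, with COL1A2, COL3A1, DCN and LUM at 0 in CA1. T1 and CA1, which descend from the cells named NeoT, held CDH1 at 645 and 362 CPM and TP63 at 41.8 and 27.1. The markers of the libraries labelled NeoT thus largely differ from those of the epithelial lines A10, T1 and CA1, and the label is used with doubt. What lies behind this, a wrong label included, was not tested. Below, NeoT stands for the libraries so labelled. Of the markers of other cells, PTPRC, CD3E and ADIPOQ had 0 counts throughout, but others did not. The 5 leukocyte markers summed to 7.88 to 8.67 CPM in A10 and 6.66 to 8.01 in T1, and to 153 to 164 in NeoT and 81.4 to 88.2 in CA1, nearly all from CD68. The 4 adipocyte markers summed to 0.0361 to 0.327 CPM in A10, 14.0 to 19.6 in NeoT (mostly PLIN1 and FABP4), 24.4 to 26.1 in T1 (mostly LPL) and 4.27 to 6.30 in CA1. The 4 endothelial markers summed to 82.7 to 90.5 CPM in T1 and 23.7 to 25 in CA1, mostly PECAM1, and to 2.59 to 10.3 in A10 and NeoT. The part of these marker differences in the members' values was not tested. The biological coefficient of variation was 15.9% in NeoT, 8.63% in A10, 8.32% in T1 and 6.38% in CA1, while the fit shares 1 estimate over the lines. Libraries of a line are labelled as biological replicates, with nothing on how they were cultured, so p-values measure the spread between these samples, which may be technical.

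Against A10, the members were mostly lower in each of the 3 derived lines, and the recombination and Fanconi genes had the lowest medians of the roles with 4 or more genes. In NeoT, 20 of 36 members were lower and 3 higher at an edgeR adjusted p under 0.05, where 36.7% of all genes tested were called lower and 33.7% higher. In T1, 22 members were lower and 3 higher, beside 25.9% and 26% of all genes. In CA1, 25 members were lower and 3 higher, beside 36.5% and 34.4% of all genes. The median log2 fold change of the members was -0.41 in NeoT, -0.44 in T1 and -0.86 in CA1, and that of all genes tested was -0.042, -0.0066 and -0.023. Falls of at least 2-fold were called for 12 members in NeoT (19.1% of all genes), 1 in T1 (9.39%) and 16 in CA1 (17.9%). Rises of at least 2-fold were called in NeoT for 2 members, ATM and XRCC1 (15.2% of all genes). These comparisons share the A10 libraries, so a low or high value there enters all of them. A10 was the line with the highest mean for 24 members, NeoT for 7, CA1 for 3 and T1 for 2. The lowest mean was in CA1 for 18 members, in NeoT for 11, in T1 for 5 and in A10 for 2. The test over all 4 lines together called 34 of 36 members, beside 89.8% of all genes, and missed RAD51B and XRCC6.

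**Figure D1:**
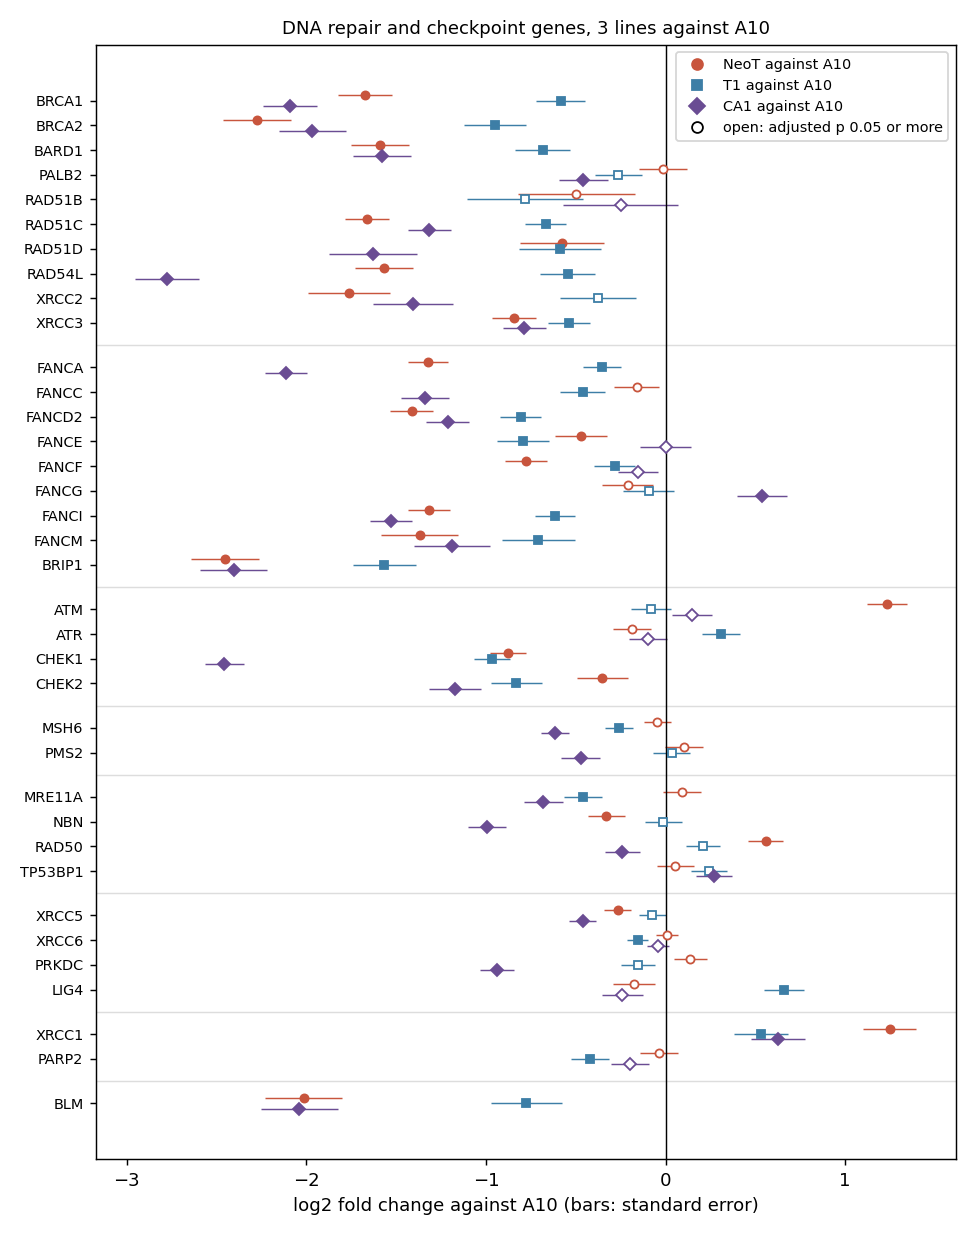
Log2 fold change of each member in NeoT (circles), T1 (squares) and CA1 (diamonds) against A10, grouped by role; bars are standard errors of the fit and open symbols have an edgeR adjusted p of 0.05 or more. Most symbols of the upper 2 blocks, homologous recombination and Fanconi anaemia, lie left of 0, while ATM in NeoT and XRCC1 in all 3 lines lie to the right.

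Genes of S phase and mitosis were lower in the derived lines as well. Of 32 such genes, 31 were lower in NeoT (median log2 fold change -2.01), 28 in T1 (median -0.88) and 31 in CA1 (median -1.75). Over all genes tested, 36.7%, 25.9% and 36.5% were called lower in the same order. Their summed level was 3155 to 3267 CPM in A10, 962 to 1021 in NeoT, 1680 to 1701 in T1 and 1145 to 1153 in CA1. Here and below, means are given ± SD with n = 3 libraries. MKI67, a marker of cycling cells, stood at 190 ± 20.8 CPM in A10, against 33.2 ± 4.47 in NeoT, 89.7 ± 3.68 in T1 and 69.6 ± 9.13 in CA1. PCNA, the replication clamp, stood at 218 ± 1.16, 40.3 ± 1.56, 138.5 ± 3.48 and 68.8 ± 3.42 CPM in the same order, and the topoisomerase TOP2A at 187 ± 9.61, 85.8 ± 15.9, 89.0 ± 3.46 and 100.3 ± 6.65. Few members fell as far as the median S phase gene: 3 of 36 in NeoT, 3 in T1 and 7 in CA1. With bulk RNA, fewer cells in S phase and less RNA per cell cannot be told apart, and the part of the cell cycle in the members' falls was not tested.

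Most homologous recombination genes fell in each derived line. Of the 10 members, 8 fell in NeoT (median log2 fold change -1.58), 7 in T1 (-0.59) and 9 in CA1 (-1.49). These counts stand beside 36.7%, 25.9% and 36.5% of all genes called lower. Their summed level was 168 ± 4.35 CPM in A10, then 77.7 ± 8.40 in NeoT, 113 ± 7.26 in T1 and 67.9 ± 2.80 in CA1. BRCA1 (chr17:43044295-43170245 in GRCh38), whose protein starts resection and recruits the later factors, stood at 31.6, 31.0 and 29.5 CPM in the A10 libraries, 8.81, 7.72 and 12.6 in NeoT, 18.5, 20.4 and 22.5 in T1 and 8.28, 6.65 and 6.79 in CA1. Every A10 library lay above every T1 library and every T1 library above all of NeoT and CA1, whose ranges overlapped. BRCA1 was 3.19-fold lower in NeoT (log2 fold change -1.67, SE 0.15, edgeR adjusted p = 9.32e-09), 1.5-fold lower in T1 (adjusted p = 0.00164) and 4.26-fold lower in CA1 (adjusted p = 5.99e-10).

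BRCA2 (chr13:32315474-32400266), which acts at resected single-stranded DNA, stood at 16.2, 13.9 and 12.8 CPM in A10, against 2.49, 2.72 and 3.77 in NeoT, 6.90, 8.32 and 6.99 in T1 and 3.21, 4.23 and 3.52 in CA1. The order of the libraries was the same as for BRCA1, with NeoT and CA1 overlapping at the bottom. BRCA2 fell 4.84-fold in NeoT (edgeR adjusted p = 3.85e-09), 1.93-fold in T1 (adjusted p = 1.33e-04) and 3.91-fold in CA1 (adjusted p = 2.15e-08). RAD54L (chr1:46247688-46278473), a motor protein that acts during strand pairing with the template, had the largest fall of any member in CA1. Its libraries read 15.5, 17.4 and 13.0 CPM in A10, then 5.45, 5.69 and 4.24 in NeoT, 11, 11.1 and 9.24 in T1 and 2.08, 2.16 and 2.43 in CA1, so that no lines overlapped. RAD54L was 6.84-fold lower in CA1 (log2 fold change -2.77, SE 0.18, edgeR adjusted p = 9.82e-11), 2.97-fold in NeoT (adjusted p = 8.29e-08) and 1.46-fold in T1 (adjusted p = 0.00584). Its exons overlap LRRC41 on the other strand, which was higher in NeoT (167 ± 6.97 CPM) than in A10 (103 ± 5.05), and the use of strand in the counting is not given in the sources used here.

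BARD1, the partner that BRCA1 needs as a ubiquitin ligase, went from 15.7 ± 0.440 CPM in A10 to 5.26 ± 1.18 in NeoT, 9.78 ± 0.915 in T1 and 5.24 ± 0.554 in CA1, and was called lower in all 3 comparisons. RAD51B, RAD51C, RAD51D, XRCC2 and XRCC3, which form complexes that assist strand exchange, did not all share this course. RAD51C fell 3.16-fold in NeoT, 1.59-fold in T1 and 2.49-fold in CA1, and XRCC3 by a narrower 1.79-fold, 1.45-fold and 1.72-fold. XRCC2 fell 3.39-fold in NeoT and 2.65-fold in CA1, but its T1 libraries (3.88, 5.10 and 6.01 CPM) overlapped A10 (5.73, 6.83 and 6.90) and were not called (edgeR adjusted p = 0.144). RAD51B, one of the members with the fewest counts, was called in none of the comparisons. Its nearest miss was T1, at 2.15 ± 0.932 CPM against 3.69 ± 0.629 in A10 (adjusted p = 0.0504), and 9 of 22 other settings called that difference (adjusted p 0.0127 to 0.0457). PALB2, which bridges BRCA1 and BRCA2, was called against A10 only in CA1, where it fell 1.37-fold (17.7 ± 1.13 against 24.3 ± 1.77 CPM, edgeR adjusted p = 0.00536), while NeoT stood at 24.1 ± 4.89 CPM. Its T1 libraries (20.1, 17.8 and 22.9 CPM) lay below all of A10 (26.3, 23.3 and 23.2) without a call (adjusted p = 0.102). For that difference, 2 of 22 other settings gave a call (adjusted p 0.0294 to 0.0340).

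RAD51D shares exons and strand with the read-through transcript RAD51L3-RFFL, and its values depend on how reads were divided between the 2 rows. On its own row RAD51D stood at 7.70 ± 0.579 CPM in A10, against 5.15 ± 1.16 in NeoT, 5.11 ± 0.832 in T1 and 2.50 ± 0.826 in CA1, and was called lower in all 3 comparisons (edgeR adjusted p = 0.034, 0.0383 and 1.07e-05). The NeoT call was lost without A10 replicate 2 or 3 or NeoT replicate 1 (adjusted p 0.060 to 0.144). The T1 call was lost in 6 of 22 settings, among them without any 1 of the A10 libraries or without T1 replicate 1 or 2 (adjusted p 0.0596 to 0.142). The read-through row held 0.132 ± 0.229 CPM in A10 and 6.39 ± 0.435 in NeoT. Summed over both rows, NeoT stood above A10 (11.5 ± 0.818 against 7.83 ± 0.573 CPM), and T1 (5.40 ± 1.27) and CA1 (5.14 ± 2.21) below it.

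**Figure D2:**
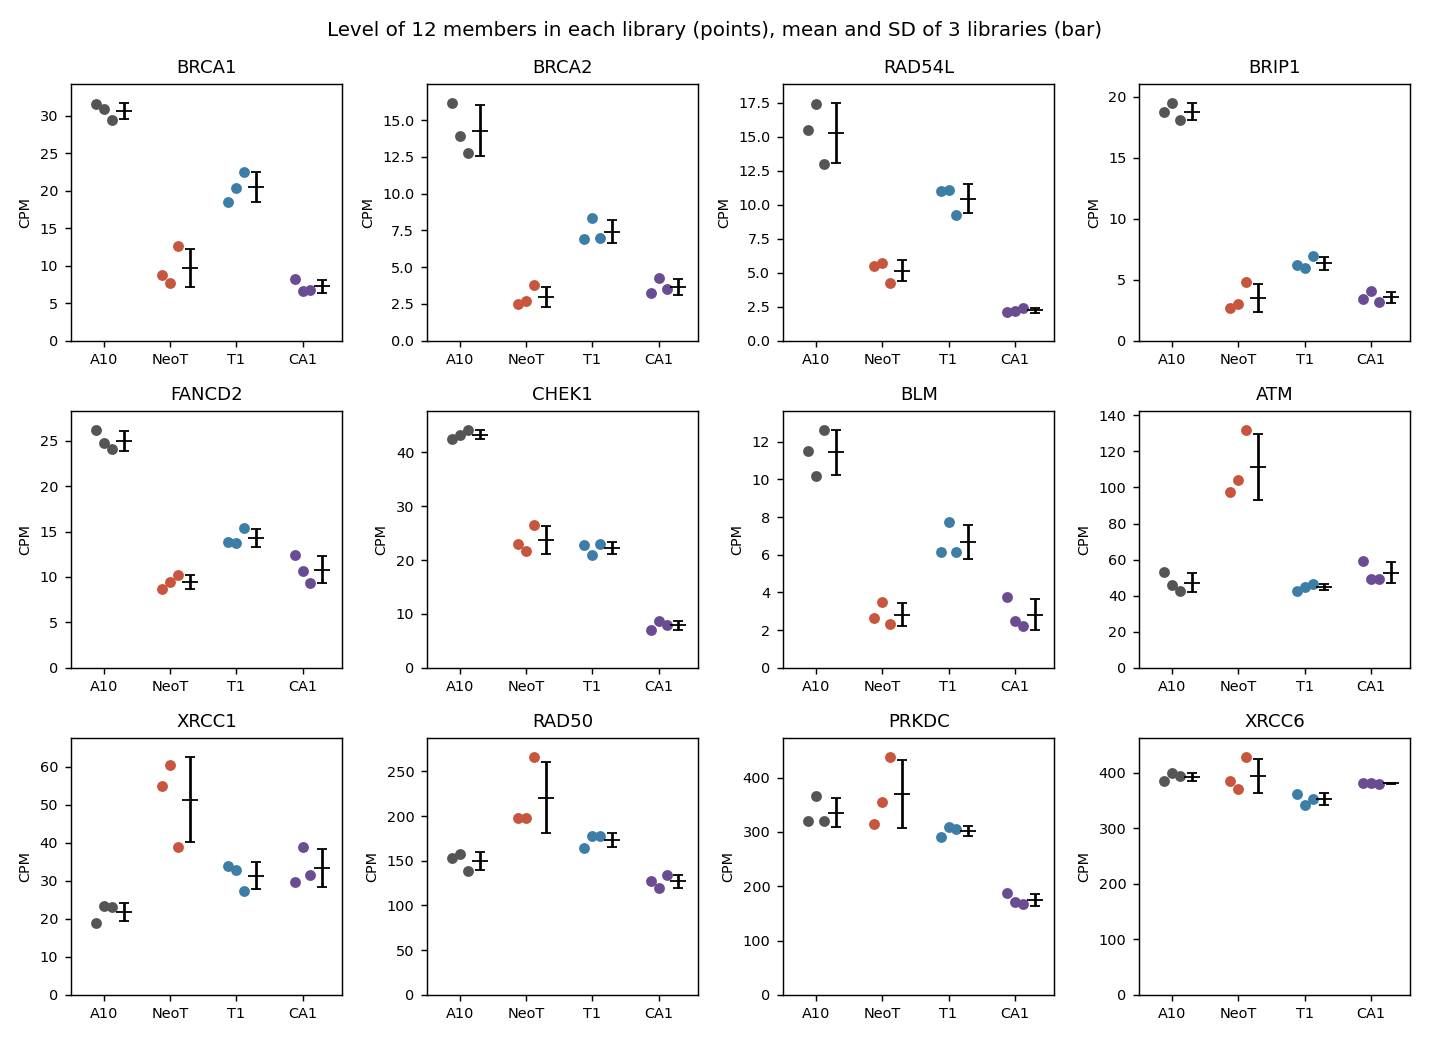
Level in CPM of 12 members in each library (points) with the mean and SD of the 3 libraries (bar), on linear axes from 0. BRCA1, BRCA2, RAD54L, BRIP1, FANCD2, CHEK1 and BLM are highest in A10, ATM, XRCC1 and RAD50 in NeoT, and PRKDC is lowest in CA1 (167 to 187 CPM).

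Fanconi anaemia genes fell in the same comparisons, with exceptions among the subunits of the core complex. Of 9 members, 7 fell in NeoT (median log2 fold change -1.32), 8 in T1 (-0.62) and 6 in CA1 (-1.21), and 1, FANCG, rose in CA1. Called lower over all genes were 36.7% in NeoT, 25.9% in T1 and 36.5% in CA1, where 34.4% were higher. BRIP1 (chr17:61681266-61863521), a helicase that binds BRCA1 and acts after unhooking, had the largest fall of any member in NeoT and in T1. It read 18.7, 19.5 and 18.1 CPM in A10, then 2.66, 3.02 and 4.76 in NeoT, 6.19, 5.92 and 6.95 in T1 and 3.43, 4.06 and 3.14 in CA1. All A10 libraries lay at more than 18 CPM and all others under 7, with T1 above NeoT and CA1. BRIP1 was 5.47-fold lower in NeoT (log2 fold change -2.45, SE 0.19, edgeR adjusted p = 1.22e-09), 2.96-fold in T1 (adjusted p = 4.41e-07) and 5.29-fold in CA1 (adjusted p = 1.53e-09).

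FANCD2 and FANCI form the clamp that is ubiquitinated at a crosslink. FANCD2 (chr3:10026414-10101930) read 26.2, 24.7 and 24.1 CPM in A10, against 8.64, 9.40 and 10.2 in NeoT, 13.8, 13.7 and 15.4 in T1 and 12.4, 10.7 and 9.34 in CA1, so that A10 stood apart and only NeoT and CA1 overlapped. It fell 2.67-fold in NeoT, 1.75-fold in T1 and 2.32-fold in CA1 (edgeR adjusted p = 6.13e-09, 1.08e-05 and 4.65e-08), and has 1 pseudogene copy that could share reads. FANCI went from 61.1 ± 3.56 CPM in A10 to 24.6 ± 2.84 in NeoT, 39.95 ± 5.57 in T1 and 21.2 ± 2.63 in CA1, and its exons overlap POLG on the other strand. FANCA, a scaffold of the core complex, fell to 5.86 ± 0.163 CPM in CA1 from 25.4 ± 0.186 in A10 (4.33-fold, edgeR adjusted p = 1.11e-11). FANCA stood at 10.2 ± 0.981 CPM in NeoT and 19.9 ± 1.78 in T1. FANCM, the translocase that brings the core complex to DNA, fell 2.58-fold in NeoT, 1.63-fold in T1 and 2.28-fold in CA1.

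Other core complex subunits took their own courses. FANCC fell 2.53-fold in CA1 and 1.38-fold in T1 but was not called in NeoT (15.5 ± 0.954 against 17.4 ± 1.95 CPM, edgeR adjusted p = 0.265). FANCE fell in NeoT (1.39-fold) and T1 (1.74-fold) and stood at the A10 level in CA1, 13.0 CPM in both lines (log2 difference 0.0019, SE 0.14). FANCF fell 1.71-fold in NeoT, while its 1.22-fold fall in T1 (edgeR adjusted p = 0.043) was lost in 8 of 22 settings, among them without any 1 of the T1 libraries, A10 replicate 1 or 3, or CA1 replicate 2 (adjusted p 0.0503 to 0.169). FANCG read 23.8, 25.6 and 27.2 CPM in CA1, above 14.5, 17.4 and 21.2 in A10, then 17.4, 14.9 and 13.3 in NeoT and 14.7, 16.1 and 18.9 in T1. It rose 1.45-fold in CA1 (log2 fold change 0.54, SE 0.14, edgeR adjusted p = 0.00225), and all 3 CA1 libraries lay above all 9 others.

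The start regions of 3 Fanconi genes that fell in each comparison with A10 are shown, FANCA and FANCD2 with a match to an E2F-type word and BRIP1 without one. They are RefSeq windows on GRCh38.p14 from 250 bases before to 30 after the annotated start, written 5′ to 3′ on the gene's strand, with E2F-type words and CCAAT or its reverse complement in capitals. FANCA lies on the minus strand (chr16:89816618-89816897), FANCD2 on the plus strand (chr3:10026187-10026466) and BRIP1 on the minus strand (chr17:61863499-61863778).
FANCA: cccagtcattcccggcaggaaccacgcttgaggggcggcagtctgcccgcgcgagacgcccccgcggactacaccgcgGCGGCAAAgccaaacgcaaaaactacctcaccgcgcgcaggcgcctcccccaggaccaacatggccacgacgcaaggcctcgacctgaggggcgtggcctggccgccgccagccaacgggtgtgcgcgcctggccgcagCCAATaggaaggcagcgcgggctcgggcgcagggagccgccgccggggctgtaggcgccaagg
FANCD2: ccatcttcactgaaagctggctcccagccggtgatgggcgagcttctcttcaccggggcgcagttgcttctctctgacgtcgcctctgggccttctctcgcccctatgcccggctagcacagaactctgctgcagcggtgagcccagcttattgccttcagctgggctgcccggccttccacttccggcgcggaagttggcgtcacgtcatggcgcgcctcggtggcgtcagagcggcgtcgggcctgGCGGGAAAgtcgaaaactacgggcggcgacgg
BRIP1: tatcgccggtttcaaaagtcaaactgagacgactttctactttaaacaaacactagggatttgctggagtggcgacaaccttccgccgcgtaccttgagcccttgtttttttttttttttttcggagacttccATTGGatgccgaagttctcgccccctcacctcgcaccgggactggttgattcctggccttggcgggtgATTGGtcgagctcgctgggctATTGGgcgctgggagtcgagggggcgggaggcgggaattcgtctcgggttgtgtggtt
The E2F-type word of FANCA, GCGGCAAA, begins 172 bases before the start, and that of FANCD2, GCGGGAAA, begins 2 bases before it. BRIP1 holds 3 CCAAT words and 0 of the E2F-type. Over all 32 members that had a window of 300 bases (49 windows, 11 members with more than 1), 7 held TTTGGCGC, TTTCCCGC, TTTGCCGC or TTTCGCGC on either strand, or 21.9%, and 3.99% of 27305 genes with a window did. Those 7 were FANCA, FANCC, FANCD2, MSH6, PMS2, XRCC2 and XRCC6, of which FANCC, MSH6, PMS2 and XRCC6 were not called in NeoT. Among the 14 members with a window that were lower in all 3 lines, 2 held the word (14.3%), and among the 18 others 5 did (27.8%). Of the 7 members with the word, 3 were lower in NeoT, 5 in T1 and 6 in CA1. Of the 25 members with a window and without the word, 14, 16 and 15 were. Over all genes tested, 36.7%, 25.9% and 36.5% were called lower in the same order. The difference between members with and without the word was not tested, and single calls move it. With the word, the T1 call of XRCC6 was lost in 7 of 22 settings. Without it, the T1 calls of FANCF and RAD51D were lost in 8 and 6. CCAAT on either strand was in 19 members (59.4%) and in 39.7% of all genes, and a CCAAT and an E2F-type word can share at most 1 end letter. In the list of S phase and mitosis genes, 12 of 26 with a window (46.2%) held an E2F-type word and 21 (80.8%) CCAAT. A match says only that these letters stand in the window. The genes behind the 3.99% and 39.7% were not matched to the members in level, base content or windows per gene.

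The 4 checkpoint kinases took separate courses, with rises only among the upstream kinases ATM and ATR and the larger falls in the effectors CHEK1 and CHEK2. ATM (chr11:108222484-108369102), the kinase that answers double-strand breaks, was higher in NeoT. ATM read 97.6, 104 and 132 CPM in NeoT, 53.2, 45.9 and 42.6 in A10, 42.8, 44.8 and 46.4 in T1 and 59.3, 49.0 and 49.4 in CA1, so that the NeoT libraries lay above all 9 others and A10 overlapped both T1 and CA1. It was 2.35-fold higher than A10 in NeoT (log2 fold change 1.23, SE 0.11, edgeR adjusted p = 1.4e-08) and was not called in T1 (adjusted p = 0.569) or CA1 (adjusted p = 0.242). Its exons overlap NPAT on the other strand, which stood at 20.4 ± 3.09 CPM in A10 and 16.5 ± 3.58 in NeoT. ATR, the kinase that answers single-stranded DNA at stalled forks, stood at 38.6 ± 0.846 CPM in A10, against 34.1 ± 6.30 in NeoT, 47.9 ± 4.07 in T1 and 36.1 ± 1.22 in CA1. ATR was higher in T1 by 1.24-fold (edgeR adjusted p = 0.0198), and leaving out the third library of either A10 or T1 ended that call (adjusted p 0.063 and 0.106). In NeoT it was not called (adjusted p = 0.131). The 2 settings that left out NeoT replicate 3 called it lower there (adjusted p 0.00146 to 0.00232).

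CHEK1 (chr11:125625136-125676255), the effector of ATR that restrains origin firing and entry into mitosis, was lower in all derived lines and lowest in CA1. It read 42.5, 43.2 and 44.2 CPM in A10, then 22.9, 21.6 and 26.6 in NeoT, 22.8, 20.9 and 22.9 in T1 and 6.93, 8.63 and 8 in CA1. A10 lay above all other lines, NeoT and T1 overlapped, and CA1 lay below all. CHEK1 fell 1.83-fold in NeoT, 1.95-fold in T1 and 5.49-fold in CA1 (log2 fold change -2.46, SE 0.11, edgeR adjusted p = 5.97e-13). Its exons overlap STT3A on the same strand, which stood at 172 ± 4.98 CPM in A10, against 241 ± 28.4 in NeoT and 146 ± 1.69 in CA1, so some reads could have been assigned to either gene. CHEK2, the effector of ATM, stood at 13.7 ± 0.356 CPM in A10, then 10.7 ± 1.27 in NeoT, 7.68 ± 1.06 in T1 and 6.06 ± 0.579 in CA1. It fell 2.25-fold in CA1 and 1.78-fold in T1, while its 1.28-fold fall in NeoT (edgeR adjusted p = 0.0328) was lost in 7 of 22 settings, among them without any 1 of the A10 libraries or without NeoT replicate 2 or 3 (adjusted p 0.0533 to 0.122). CHEK2 has 4 pseudogene copies that could share its reads.

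Break sensing genes moved apart from each other although 3 of them encode 1 complex. MRE11A (now MRE11), RAD50 and NBN form the clamp that finds broken ends and activates ATM. RAD50 (chr5:132556019-132646344) read 153, 158 and 139 CPM in A10, against 198, 198 and 266 in NeoT, 164, 178 and 178 in T1 and 127, 120 and 134 in CA1. NeoT lay above all other lines and CA1 below all. RAD50 rose 1.47-fold in NeoT (log2 fold change 0.56, SE 0.10, edgeR adjusted p = 4.98e-05). Its 1.18-fold fall in CA1 (adjusted p = 0.0341) was lost without A10 replicate 1 or 2 or CA1 replicate 1 or 2 (adjusted p 0.0714 to 0.124). In T1 it was not called (adjusted p = 0.0787), and 3 other settings, among them leaving out NeoT replicate 3, did call it (adjusted p 0.00195 to 0.00591).

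NBN went the other way in NeoT, at 46.3 ± 7.36 CPM against 57.9 ± 5.61 in A10, with replicates that overlapped. That 1.26-fold fall (edgeR adjusted p = 0.0096) was lost without A10 replicate 1 or NeoT replicate 2 (adjusted p 0.0553 to 0.0596). In CA1, NBN fell 1.99-fold to 29.1 ± 1.92 CPM (adjusted p = 1.51e-07). MRE11A fell 1.38-fold in T1 and 1.60-fold in CA1 and stood at 30.8 ± 3.27 CPM in NeoT against 28.8 ± 2.42 in A10 (adjusted p = 0.446). TP53BP1, which shields broken ends from resection and so favours end joining, stood at 35.5 ± 4.18 CPM in A10, then 36.9 ± 4.28 in NeoT, 41.9 ± 2.82 in T1 and 42.8 ± 2.61 in CA1. Its 1.21-fold rise in CA1 (edgeR adjusted p = 0.0254) had overlapping replicates and was lost without A10 replicate 1 or 3 or CA1 replicate 1 or 3 (adjusted p 0.0587 to 0.124). The T1 difference was not called (adjusted p = 0.054), and 6 of 22 other settings, among them leaving out A10 replicate 2, NeoT replicate 1 or NeoT replicate 3, called it (adjusted p 0.0148 to 0.0402).

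End joining genes included the highest levels of the set, and 1 of 4 fell in NeoT, 1 in T1, where 1 rose, and 2 in CA1. Beside these falls stand 36.7%, 25.9% and 36.5% of all genes, and beside the rise 26%. The falls in NeoT and T1 were thus no larger a share than over all genes. XRCC5 and XRCC6 encode the Ku80 and Ku70 subunits of the ring that caps broken ends, and PRKDC the catalytic subunit of the kinase that Ku recruits. XRCC6 (chr22:41621119-41664048) read 385, 399 and 393 CPM in A10, against 384, 370 and 428 in NeoT, 362, 341 and 353 in T1 and 382, 381 and 380 in CA1. Its 1.11-fold fall in T1 (edgeR adjusted p = 0.0381) was lost in 7 of 22 settings, each of which left out 1 library: A10 replicate 2 or 3, T1 replicate 2 or 3, or any 1 of CA1 (adjusted p 0.0501 to 0.135). XRCC6 was not called in NeoT (adjusted p = 0.931) or CA1 (adjusted p = 0.548), and it has 5 pseudogene copies. XRCC5 stood at 396 ± 19.4 CPM in A10, then 330 ± 43.8 in NeoT, 376 ± 5.30 in T1 and 288 ± 6.66 in CA1, and fell 1.20-fold in NeoT, with overlapping replicates, and 1.38-fold in CA1.

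PRKDC read 320, 366 and 321 CPM in A10, against 315, 356 and 438 in NeoT, 291, 309 and 305 in T1 and 187, 171 and 167 in CA1. All 3 CA1 libraries lay below all 9 others, and A10 overlapped NeoT. It fell 1.92-fold in CA1 (log2 fold change -0.94, SE 0.09, edgeR adjusted p = 7.76e-08). It was not called in NeoT (adjusted p = 0.193) or T1 (adjusted p = 0.184); without NeoT replicate 1 the higher level in NeoT was called (adjusted p = 0.0179), and without NeoT replicate 3 or with only the libraries compared the lower level in T1 was (adjusted p 0.026 to 0.0272). LIG4, the ligase that seals the joined ends, was higher in T1: it read 19, 17.3 and 20.8 CPM there, above 12.3, 11.9 and 11.9 in A10, then 11, 10.4 and 10.5 in NeoT and 10.6, 10.5 and 9.43 in CA1. The rise in T1 was 1.58-fold (log2 fold change 0.66, SE 0.11, edgeR adjusted p = 6.44e-05), with T1 apart from all 9 other libraries. The 3 genes of the Ku and PRKDC complex made up 53.3% to 57.8% of the summed CPM of all 36 members in every library, so sums over the set follow them.

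Single-strand break repair had a member, XRCC1, that was higher than A10 in each derived line. XRCC1 (chr19:43543040-43580473) is the scaffold that gathers ligase and polymerase at single-strand breaks. It read 19, 23.3 and 23 CPM in A10, against 54.9, 60.4 and 38.8 in NeoT, 33.9, 32.8 and 27.4 in T1 and 29.6, 39.0 and 31.6 in CA1. All A10 libraries lay below all others, and NeoT overlapped CA1. XRCC1 rose 2.37-fold in NeoT (log2 fold change 1.25, SE 0.15, edgeR adjusted p = 1.03e-06), 1.45-fold in T1 (adjusted p = 0.00659) and 1.54-fold in CA1 (adjusted p = 0.00139). PARP2, one of the polymerases that mark such breaks, fell 1.34-fold in T1 (12.8 ± 0.358 against 17.1 ± 0.348 CPM) and was not called in NeoT or CA1. The start region of XRCC1 (chr19:43575498-43575777, minus strand, same build and window as above) is shown because the gene was higher than A10 in each derived line. This window lies inside the gene span given above, which on this strand starts at 43580473. The sources of span and window thus place the start differently. The window holds 1 CCAAT word, in capitals as ATTGG, and 0 E2F-type words.
XRCC1: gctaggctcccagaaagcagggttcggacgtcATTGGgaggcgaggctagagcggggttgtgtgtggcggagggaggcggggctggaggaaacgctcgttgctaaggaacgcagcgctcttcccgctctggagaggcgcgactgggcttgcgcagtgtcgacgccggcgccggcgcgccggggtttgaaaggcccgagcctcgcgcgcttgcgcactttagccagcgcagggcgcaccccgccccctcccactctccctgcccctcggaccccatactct

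Mismatch repair members fell in CA1. MSH6, which finds mismatches, stood at 88.2 ± 2.47 CPM in A10, then 85.6 ± 8.55 in NeoT, 73.7 ± 1.31 in T1 and 57.5 ± 3.72 in CA1, falling 1.20-fold in T1 and 1.53-fold in CA1. PMS2, the nicking subunit, fell 1.39-fold in CA1 (12.4 ± 0.906 against 17.2 ± 0.441 CPM), but 11 pseudogene copies make its reads uncertain. BLM (chr15:90717327-90816165), the RecQ helicase that dissolves recombination intermediates, followed the recombination genes. It read 11.5, 10.2 and 12.6 CPM in A10, against 2.62, 3.49 and 2.32 in NeoT, 6.16, 7.72 and 6.17 in T1 and 3.77, 2.46 and 2.22 in CA1. A10 lay above all others and T1 above NeoT and CA1, which overlapped. BLM fell 4.04-fold in NeoT, 1.71-fold in T1 and 4.11-fold in CA1 (edgeR adjusted p = 1.28e-07, 0.00302 and 1.17e-07).

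Between NeoT and T1, most recombination and Fanconi genes stood higher in T1, and ATM, RAD50, MRE11A and XRCC1 lower. In T1 against NeoT, 18 of 36 members were higher and 10 lower, beside 35% and 32.4% of all genes, with a median log2 fold change of 0.19 against 0.014 over all genes. Homologous recombination gave 7 higher of 10, and Fanconi anaemia 6 higher and 1 lower of 9. XRCC2 was 2.62-fold higher in T1 than in NeoT, BRCA2 2.50-fold, BLM 2.36-fold and BRCA1 2.13-fold (edgeR adjusted p = 3.37e-05, 6.65e-06, 6.08e-05 and 3.44e-06). ATM was 2.49-fold lower in T1 than in NeoT (adjusted p = 6.98e-09) and XRCC1 1.64-fold lower. S phase genes moved likewise, with 28 of 32 higher in T1 than in NeoT, 2 lower and a median log2 fold change of 1.04, and their part in these differences was not tested. FANCC, lower in T1 by 1.23-fold (adjusted p = 0.047), lost its call in 12 of 22 settings (adjusted p 0.0512 to 0.187), among them without A10 replicate 1 or 3, CA1 replicate 2, NeoT replicate 2 or 3 or any 1 of T1. Leaving out 1 library also ended smaller differences of T1 from NeoT. These were XRCC3 (without NeoT replicate 2 or T1 replicate 1 or 3), XRCC5 (NeoT replicate 1 or 2 or any 1 of T1), XRCC6 and MSH6 (NeoT replicate 3 or T1 replicate 2 or 3), FANCM (NeoT replicate 1 or 2) and NBN (NeoT replicate 2 or T1 replicate 3). Over all settings that ended them, their edgeR adjusted p ran from 0.0508 to 0.152 for XRCC3, 0.0589 to 0.144 for XRCC5, 0.0616 to 0.105 for XRCC6, 0.0517 to 0.0831 for MSH6, 0.0589 to 0.0606 for FANCM and 0.0527 to 0.0699 for NBN.

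Between T1 and CA1 nearly all changes were downward. In CA1 against T1, 22 members were lower and 2, FANCE and FANCG, higher, beside 31.9% and 30.4% of all genes, with a median log2 fold change of -0.46 against -0.0095. RAD54L was 4.69-fold lower in CA1 than in T1 (log2 fold change -2.23, SE 0.18, edgeR adjusted p = 4.51e-09), FANCA 3.39-fold, BRCA1 2.84-fold and CHEK1 2.81-fold. PRKDC was 1.73-fold lower, NBN 1.98-fold and LIG4 1.87-fold. FANCE was 1.74-fold higher (adjusted p = 1.29e-04) and FANCG 1.55-fold (adjusted p = 7.68e-04). The call of FANCD2, 1.32-fold lower in CA1 (adjusted p = 0.00775), was lost without CA1 replicate 3 (adjusted p = 0.0567). Leaving out NeoT replicate 3, which changes the spread estimated for all lines, gave 4 members higher in CA1 than in T1, with ATM and XRCC6 added, and 5 higher in T1 than in A10, with RAD50 and TP53BP1 added. The S phase list had 6 genes higher and 19 lower in CA1 than in T1.

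Between NeoT and CA1, CHEK1, RAD54L, FANCC, ATM and PRKDC stood lower in CA1, and 3 Fanconi core genes and RAD51C higher. In CA1 against NeoT, 17 members were lower and 4 higher, beside 32.7% and 33.8% of all genes, with a median log2 fold change of -0.18 against 0 over all genes. The members called in either direction, 58.3%, were thus no larger a share than over all genes, and of the 32 S phase genes 14 were higher and 11 lower in CA1 (median log2 fold change 0.046). CHEK1 was 2.99-fold lower in CA1 (edgeR adjusted p = 3.9e-10), RAD54L 2.31-fold, FANCC 2.26-fold, ATM 2.12-fold and PRKDC 2.11-fold. RAD51D was 2.07-fold lower on its own row. Higher in CA1 were FANCG (1.68-fold), FANCF (1.54-fold), FANCE (1.39-fold) and RAD51C (1.27-fold). The RAD51C call (adjusted p = 0.0219) was lost in 6 of 22 settings, among them without CA1 replicate 2 or NeoT replicate 2 or 3 (adjusted p 0.0535 to 0.130). BRCA1 was 1.34-fold lower with overlapping replicates, and its call (adjusted p = 0.029) was lost in 6 settings, among them without CA1 replicate 2 or 3 or NeoT replicate 3 (adjusted p 0.0801 to 0.214). XRCC5, 1.14-fold lower in CA1 (adjusted p = 0.03), lost its call in 5 settings, among them without CA1 replicate 2 or 3 or NeoT replicate 3 (adjusted p 0.0672 to 0.189). BRCA2, BARD1, BRIP1 and BLM were not called between CA1 and NeoT, with log2 differences of 0.31 (SE 0.20), 0.0088 (SE 0.17), 0.048 (SE 0.20) and -0.024 (SE 0.23).

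**Figure D3:**
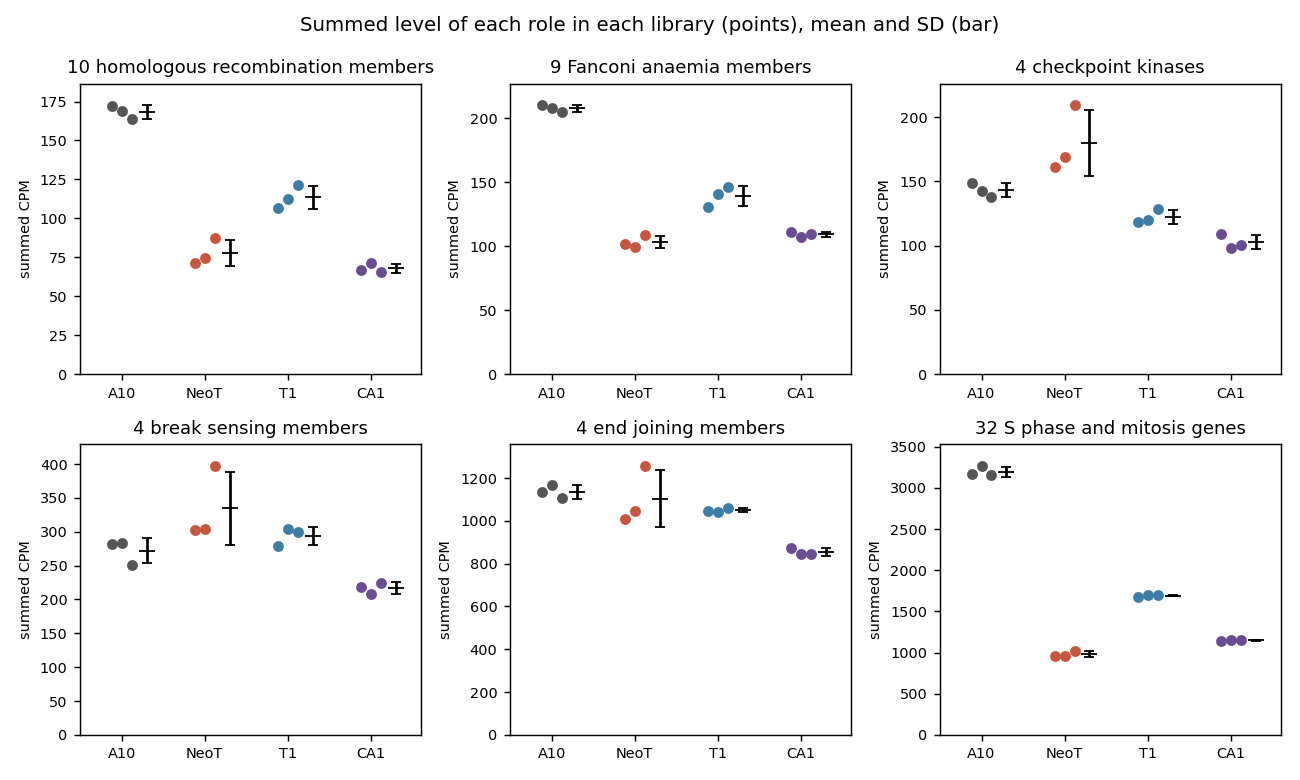
Summed level in CPM of 5 roles of members and of the 32 S phase and mitosis genes in each library (points), with mean and SD (bar), on linear axes from 0. The recombination sum is 168 CPM in A10 and 67.9 in CA1. The end joining sum is 1105 to 1170 CPM in A10, 1011 to 1257 in NeoT, 1041 to 1061 in T1 and lowest in CA1, at 843 to 875.

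Ratios between partner genes, of 1 complex or of 1 signalling step, stood apart between lines for some pairs and overlapped for others. They divide the CPM of 2 members within a library, are not corrected for transcript length, are compared only between lines and were not tested. ATM to ATR was 1.22 ± 0.130 in A10, then 3.27 ± 0.0931 in NeoT, 0.936 ± 0.0518 in T1 and 1.45 ± 0.128 in CA1, with all NeoT libraries above 3.2 and all others under 1.6. RAD50 to NBN was 2.60 ± 0.196, 4.76 ± 0.131, 3.01 ± 0.0916 and 4.39 ± 0.465 in the same order, with A10 and T1 below NeoT and CA1 in every library. XRCC5 to XRCC6, the 2 Ku subunits, was 1.01 ± 0.0646 in A10, against 0.835 ± 0.0522 in NeoT, 1.07 ± 0.0348 in T1 and 0.756 ± 0.0159 in CA1, again with A10 and T1 apart from NeoT and CA1. FANCD2 to FANCI was 0.402 to 0.414 in A10, and the ranges in NeoT (0.365 to 0.403), T1 (0.333 to 0.408) and CA1 (0.402 to 0.588) all overlapped it. CHEK1 to CHEK2 was 3.17 ± 0.145 in A10, then 2.24 ± 0.480 in NeoT, 2.94 ± 0.521 in T1 and 1.30 ± 0.142 in CA1. All NeoT libraries lay below A10 and all CA1 libraries below every other line, while T1 overlapped A10 and NeoT. BRCA1 to BARD1 stayed near 2 in A10 (1.95 ± 0.0286), NeoT (1.86 ± 0.319) and T1 (2.09 ± 0.0404) and was 1.40 ± 0.314 in CA1, where the range (1.14 to 1.75) overlapped NeoT (1.5 to 2.13). BRCA1 to TP53BP1, genes whose proteins oppose each other at a broken end, was 0.871 ± 0.0873 in A10, then 0.261 ± 0.0448 in NeoT, 0.489 ± 0.0510 in T1 and 0.169 ± 0.0124 in CA1, with no overlap between the lines.

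**Figure D4:**
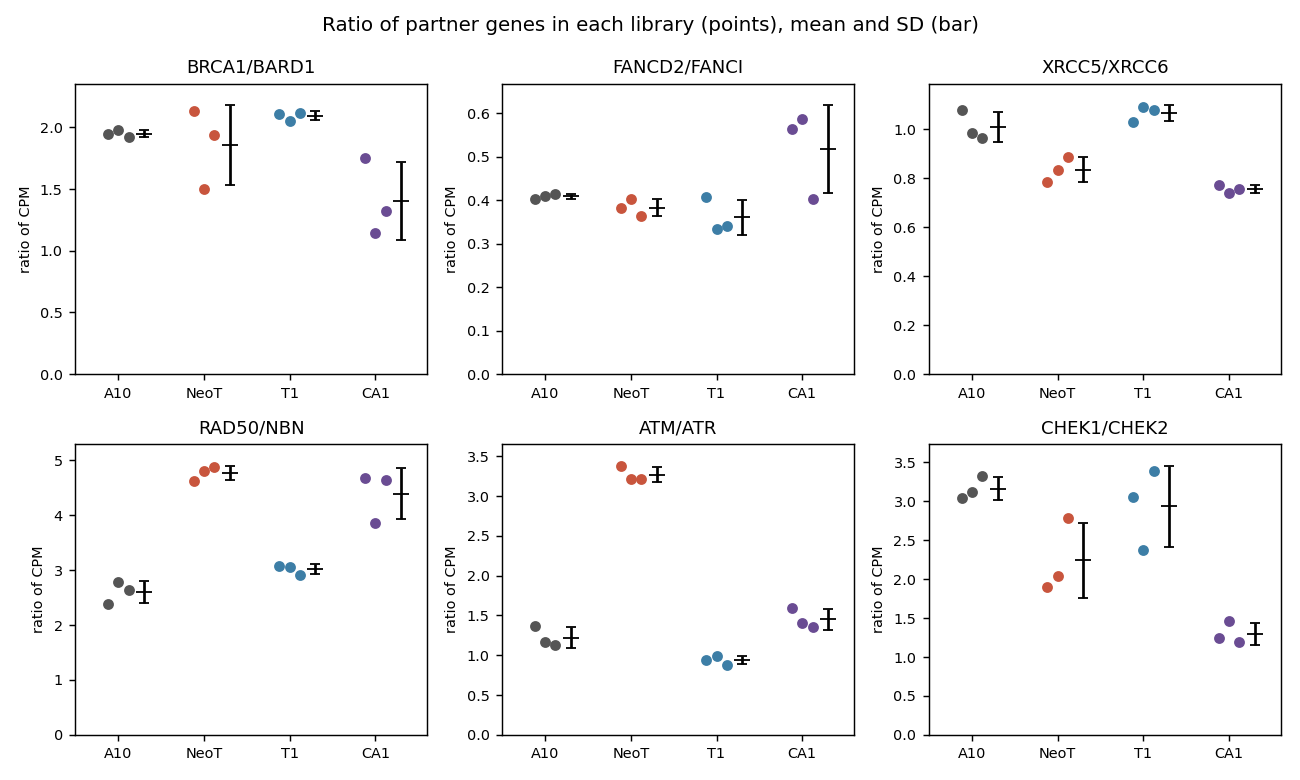
Ratio of the CPM of 6 pairs of partner genes in each library (points), with mean and SD (bar), on linear axes from 0. ATM to ATR stands above 3.2 in NeoT alone, and XRCC5 to XRCC6 lies lower in NeoT and CA1 than in A10 and T1.

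On a scale corrected for length, CPM per kilobase of the principal transcript in GENCODE release 29, the members spanned a wide range of levels. In A10, XRCC6 stood at 145 CPM per kilobase, XRCC5 at 105, PRKDC at 24.8 and RAD50 at 18.1, the 4 highest of 36. The first 2 kept their ranks in all 4 lines. BRCA2 (1.19 CPM per kilobase), FANCM (1.29) and RAD51B (1.42) were among the 4 lowest levels in A10, and RAD51D was listed lowest, on a transcript whose length of 9988 bases makes its value uncertain. CHEK1 went from rank 9 in A10 (10.4 CPM per kilobase) to rank 24 in CA1 (1.89), and ATM from rank 26 in A10 (3.59) to rank 8 in NeoT (8.46).

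Beyond the members, 125 other repair genes in 9 lists moved less in 1 direction. In NeoT 36 were higher and 54 lower (median log2 fold change -0.11), in T1 10 and 44 (-0.11), and in CA1 34 and 57 (-0.17). Beside these and the lists below stand 33.7% higher and 36.7% lower of all genes in NeoT, 26% and 25.9% in T1, and 34.4% and 36.5% in CA1. The 19 other homologous recombination genes resembled the members, with 4 higher and 13 lower in NeoT (median -1.27), 9 lower in T1 (-0.61) and 2 higher and 11 lower in CA1 (-0.82). EXO1, a nuclease that resects ends and also serves mismatch repair, fell from 35.0 ± 1.07 CPM in A10 to 2.82 ± 0.849 in CA1 (12.5-fold, edgeR adjusted p = 8.51e-12). GEN1, which cuts recombination junctions, fell 9.81-fold in NeoT, from 25.2 ± 2.12 to 2.62 ± 0.902 CPM. Of 10 other Fanconi genes, 2 were higher and 6 lower in NeoT, 1 and 4 in T1 and 1 and 5 in CA1. UBE2T, which ubiquitinates FANCD2, fell from 44.5 ± 4.91 CPM to between 12.1 and 14.7 in the derived lines, while the nuclease FAN1 rose 2.33-fold in NeoT, 1.40-fold in T1 and 1.45-fold in CA1.

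Of 10 other end joining genes, 3 were higher and 3 lower in NeoT, 1 and 2 in T1 and 3 and 2 in CA1. PARP1, which senses breaks and serves alternative end joining, stood at 412 ± 5.60 CPM in A10 and at 97.8 ± 10.1, 93.8 ± 0.832 and 71.9 ± 3.95 in NeoT, T1 and CA1, falls of 4.20-fold, 4.39-fold and 5.72-fold, whereas the member PARP2 moved by at most 1.34-fold against A10. POLL, a gap-filling polymerase, rose 4.46-fold in NeoT, 1.63-fold in T1 and 4.08-fold in CA1. Among 25 other damage signalling and checkpoint genes, 4 were higher and 14 lower in NeoT, 2 and 12 in T1 and 5 and 14 in CA1. CLSPN (claspin), through which ATR activates CHEK1, fell 4.62-fold in NeoT and 17.8-fold in CA1, to 1.39 ± 0.107 CPM from 25 ± 1.13 in A10. Base excision repair (18 genes) had 6 higher and 5 lower in NeoT, 2 and 4 in T1 and 6 and 9 in CA1, with the flap nuclease FEN1 down 5.50-fold in NeoT and 5.66-fold in CA1. Nucleotide excision repair (21 genes) had 8 higher and 6 lower in NeoT, 2 and 4 in T1 and 9 and 7 in CA1, with the helicase ERCC2 up 2.61-fold in NeoT. Both excision repair lists lay near the shares over all genes in NeoT, 33.7% higher and 36.7% lower. Translesion synthesis and direct reversal (11 genes) had 5 higher and 2 lower in NeoT, 1 and 4 in T1 and 4 and 3 in CA1, with the polymerase POLI up 3.53-fold, 1.73-fold and 2.85-fold. The 6 other mismatch repair genes had 2 higher and 2 lower in NeoT, 2 lower in T1 and 2 higher and 2 lower in CA1. The 7 genes of RecQ helicases and their partners had 2 higher and 4 lower in NeoT, 1 and 4 in T1 and 2 and 5 in CA1, with RECQL4 down 4.19-fold, 3.03-fold and 5.87-fold.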

How the data were processed

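RNA-seq of 12 libraries from 4 cell lines was analysed. The authors deposited 1 table of unscaled estimated counts per gene with 29744 rows, which by its name came from Salmon. GRCh38 and limma are named without a role in the submitters' processing notes, and the annotation, versions and use of strand are not given in the sources used here. The libraries were made with a NEBNext Ultra RNA kit after DNase I, per the labels' protocols. Values were rounded to whole counts, which moved no member by more than 0.492. Genes were kept with filterByExpr on the line (14417 genes), scaled with TMM and fitted with edgeR 4.0.16 (R 4.3.3), quasi-likelihood with robust dispersions, 1 mean per line over all 12 libraries with 8 residual degrees of freedom. Tests were two-sided, p was adjusted over all genes by Benjamini and Hochberg, and the threshold was 0.05. SE is the log2 fold change divided by the square root of F. The same code was tested on simulated data with known changes.

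All members are described. Of the other lists (183 entries in 11 lists, p53 targets and S phase genes included), named genes are among the up to 4 with the largest called change against A10, a level of 5 CPM or more in 1 of the lines and replicates that do not overlap; MKI67, PCNA, TOP2A, HRAS and CDKN1A and cell type markers are named besides, CDKN1A in every line after its values were seen. The members and lists were chosen with earlier results of these data known. Positions and exon overlaps come from GENCODE release 29 on GRCh38 (35 members by symbol, MRE11A by synonym). Exons of 11 members overlap another gene on the opposite strand. Besides RAD54L, FANCI and ATM these are XRCC3 (KLC1), FANCA (ZNF276), FANCD2 (FANCD2OS), FANCF (GAS2), CHEK2 (HSCB), MSH6 (FBXO11), MRE11A (ANKRD49) and TP53BP1 (TUBGCP4). Whether reads of these genes entered the members' counts was not tested. Start regions come from RefSeq on GRCh38.p14, and the words searched and the genes shown were chosen with results known. Some genes are not reported here.

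The scaling was exchanged for RLE or upper-quartile, the filter for none or for 1 CPM in 3 libraries, and the test for DESeq2 (1.42.0) or limma-voom (limma 3.58.1). Other fits held only the libraries compared, added a block for the replicate number, or left out each library in turn. Added after seeing the data were fits without the 4 cytoplasmic rRNA rows, whose share reached 7.76% in T1 replicate 1, and without T1 replicate 1 and NeoT replicate 3 together.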

Additional observations from a re-analysis of the deposited data

How the results depend on the processing

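No member reversed a called direction under any of the 22 alternatives. Of 149 called differences, counted over 36 members and 6 comparisons, 128 kept their call in all of them; of the alternative values for single members, 4594 stayed on the same side of the threshold, 57 gained a call and 101 lost one. The first number includes 59 uncalled differences that changed sign. The number of members higher in T1 against A10 was 3, and it was 5 with only the libraries compared and 5 without T1 replicate 1 and NeoT replicate 3 together. The number higher in CA1 against T1 was 2, and 4 with only the libraries compared. Leaving out each library in turn gave 2 to 5 and 2 to 4 for these counts. Members lower then ranged from 18 to 20 in NeoT, 19 to 25 in T1 and 24 to 25 in CA1 against A10, and members differing among the 4 lines from 33 to 35. No scaling moved the median of all genes by 0.1 on the log2 scale.

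No clear pairing by replicate number was seen. Over 18 pairs of same-numbered libraries of different lines, deviations from the line means correlated between -0.069 and 0.088. Over 36 pairs with unlike numbers they correlated between -0.106 and 0.083. Of 12 libraries, 7 correlated best with their own number, and weak pairing was not shown to be absent. With the replicate number as a block, 20 members were lower in NeoT, 22 in T1 and 25 in CA1 against A10, as without it, and 33 differed among the 4 lines. Depth limits members with few counts, such as RAD51B, XRCC2 and RAD51D, and 15.9% variation between NeoT libraries limits comparisons with NeoT.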

Other observations

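Transcripts known as targets of p53, the factor that ATM and CHEK2 activate, moved in both directions in every comparison with A10. More were higher than lower in each, by the least in NeoT. Of 24 such genes, 12 were higher and 11 lower in NeoT, 12 higher and 4 lower in T1, and 13 higher and 6 lower in CA1, with median log2 fold changes of 0.19, 0.21 and 0.28. Over all genes tested, 33.7% were higher and 36.7% lower in NeoT, 26% and 25.9% in T1, and 34.4% and 36.5% in CA1. CDKN1A, the cell cycle inhibitor p21, stood at 390 ± 13.1 CPM in A10, then 767 ± 93.5 in NeoT, 807.5 ± 23.9 in T1 and 209 ± 9.45 in CA1. It was 2.07-fold higher in T1 (edgeR adjusted p = 1.01e-09), and its CA1 libraries (202, 220 and 206 CPM) lay below all others. TP53I3 fell 7.33-fold in NeoT and 4.69-fold in CA1, whereas the pro-apoptotic gene BBC3 rose 4.04-fold in NeoT, 1.71-fold in T1 and 2.95-fold in CA1. DDB2, a p53 target that senses ultraviolet lesions and stands in 2 of the lists, rose 2.89-fold in CA1 and fell 1.28-fold in T1.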
